A study of Mus musculus with 7 samples.

Results

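The genes described here encode proteins of the mitochondrial ribosome, measured in the brains of mice that lack Duf1220 and of wild-type mice. They were taken as every gene whose platform symbol begins with Mrpl, for the large subunit, or Mrps, for the small subunit, followed by a digit, leaving out pseudogene symbols. The rule found 76 genes among 16593 named by the annotation, 47 of the large subunit and 29 of the small, read by 110 probes among 25697. Of these 110 probes, 93 from 69 genes were tested, because their intensity lay above 16, on a linear scale, on at least 3 arrays. The tested probes were 55 from 42 large-subunit genes and 38 from 27 small-subunit genes. No tested probe was available for Mrpl15, Mrpl19, Mrpl21, Mrpl32, Mrpl39, Mrps14 and Mrps36. Of the 93 tested probes, 90 were above 16 on all 7 arrays, and the other 3 were large-subunit probes.

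Brain total RNA from 7 male C57BL/6J mice, all 21 weeks old, was measured on Illumina expression BeadArrays, 1 array per mouse. The wild-type group held 4 mice. The knockout group held 3 mice that the labels call homozygous for a ko allele, in a series on hyperactive mice with reduced fecundity that lack DUF1220 protein domains. No treatment is given for either group, and the construct of the allele, the breeding and any shared litter are not given in the sources used here.

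Mitochondria carry ribosomes of their own, which translate the few messenger RNAs of mitochondrial DNA, all of them for subunits of the respiratory chain and ATP synthase. Every protein of these ribosomes is encoded in the nucleus, made in the cytosol and imported, and many have no counterpart in bacteria. Neurons depend heavily on oxidative phosphorylation, and inherited defects in several of these proteins, such as MRPS22 and MRPL3 in humans, impair it in brain, heart or liver.

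The domain is encoded in the mouse by Pde4dip, whose brightest probe (ILMN_3064283) read 2228, 2502, 2198 and 2157 in the wild type and 1233, 1442 and 1498 in the knockout, a log2 difference of -0.71 (SE 0.15, limma adjusted p = 0.754). All 3 knockout arrays lay below all 4 wild-type arrays at that probe, while its other 2 tested probes overlapped between the groups, at 0.01 (SE 0.20) and -0.35 (SE 0.30). Wild-type array 2 stood apart, with a mean correlation with the other arrays of 0.932, followed by wild-type array 3 at 0.970, against 0.976 to 0.981 for the remaining 5. Astrocyte markers were above 16 on all arrays for 5 of 5 genes, oligodendrocyte markers for 4 of 4 on the array and neuronal markers for 3 of 5, and the probes of Snap25 and Nefl, both abundant in neurons, were at or below 16 on every array, so a probe at that level does not show that a gene is silent. Alb, Fgb and Serpina1c of liver and Ckm and Tnnt3 of skeletal muscle were at or below 16 on every array. Other genes of the same lists were above it. Acta1 of muscle read 215 to 307 in the wild type and 191 to 232 in the knockout. A Myl1 probe (ILMN_2878542) was above 16 on all 7 arrays, as was Ttr, listed for liver and choroid plexus alike, and Apoa1 of liver on 6.

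No mitochondrial ribosomal protein gene passed the test between knockout and wild type. Differences are given throughout as knockout minus wild type on the log2 intensity scale, with values under 16 set to 16. Of the 93 member probes, 38 had a higher and 55 a lower mean in the knockout, with a median difference of -0.04 and a range from -0.76 to 0.45. Over all 12833 tested probes the median was 0.02, and 53.1% had a higher mean in the knockout, against 40.9% of the members. No probe of the array passed an adjusted p of 0.05 (limma with Benjamini-Hochberg adjustment, 0% of all tested), and the lowest adjusted p of a member was 0.754. At an unadjusted limma p under 0.05 there were 3 member probes, 3.23% of the members, against 4.2% of all tested probes. Of these, 2 were lower and 1 higher in the knockout, where all tested probes gave 1.99% lower and 2.21% higher. The groups did not overlap at 5 member probes, 5.38% of the members, against 7.39% of all tested probes. The knockout lay below the wild type at 4 of them and above it at 1, where all tested probes gave 3.94% below and 3.44% above. Both shares were thus no higher than those over the whole array.

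The intervals around these differences were typically narrower than those over the whole array. The median SE of a member difference was 0.167, against 0.208 over all tested probes, and the median range of a member probe over the 7 arrays was 0.557 log2 units, against 0.814. For 60 of the 93 probes, 64.5%, the 95% interval of the difference lay within a 1.5-fold change in either direction, against 36.2% of all tested probes. For 91 of the 93 it lay within a 2-fold change, against 80.7% of all tested probes, and both exceptions were large-subunit probes. Mrpl12, a stalk protein of the large subunit also known to bind the mitochondrial RNA polymerase, read 1561, 1475, 1659 and 1527 in the wild type and 1583, 1470.4 and 1435 in the knockout. Its groups overlapped, and its difference was -0.06 with a 95% interval from -0.36 to 0.25. Mrps22, a small-subunit protein without a bacterial counterpart, read 479.6, 558, 491 and 535 in the wild type and 533, 545 and 465 in the knockout, with an interval from -0.33 to 0.32. In RNA from a whole tissue, fewer cells of a type and less RNA per cell cannot be told apart.

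Marker lists of other cell types were read on the same arrays. The 6 tested probes of 5 choroid plexus markers had a mean deviation of 0.17, 0.13, 0.32 and 0.11 in the wild type and -0.08, -0.28 and -0.37 in the knockout. The lowest of these differences were at the 2 dim Folr1 probes, -1.33 and -1.35, with Clic6 at -0.30 and Kl at -0.05, while Ttr at 0.17 and Kcne2 at 0.31 had higher means in the knockout. The summed intensity of that list, which Ttr leads, overlapped, from 6848 to 11092 in the wild type and from 8767 to 10704 in the knockout. The 9 tested probes of 5 astrocyte markers stood at 0.05, 0.55, 0.15 and -0.24 against -0.29, -0.21 and -0.02, with overlapping groups and wild-type array 2 far above the rest. The part of these markers in the member differences was not tested.

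**Figure D1:**
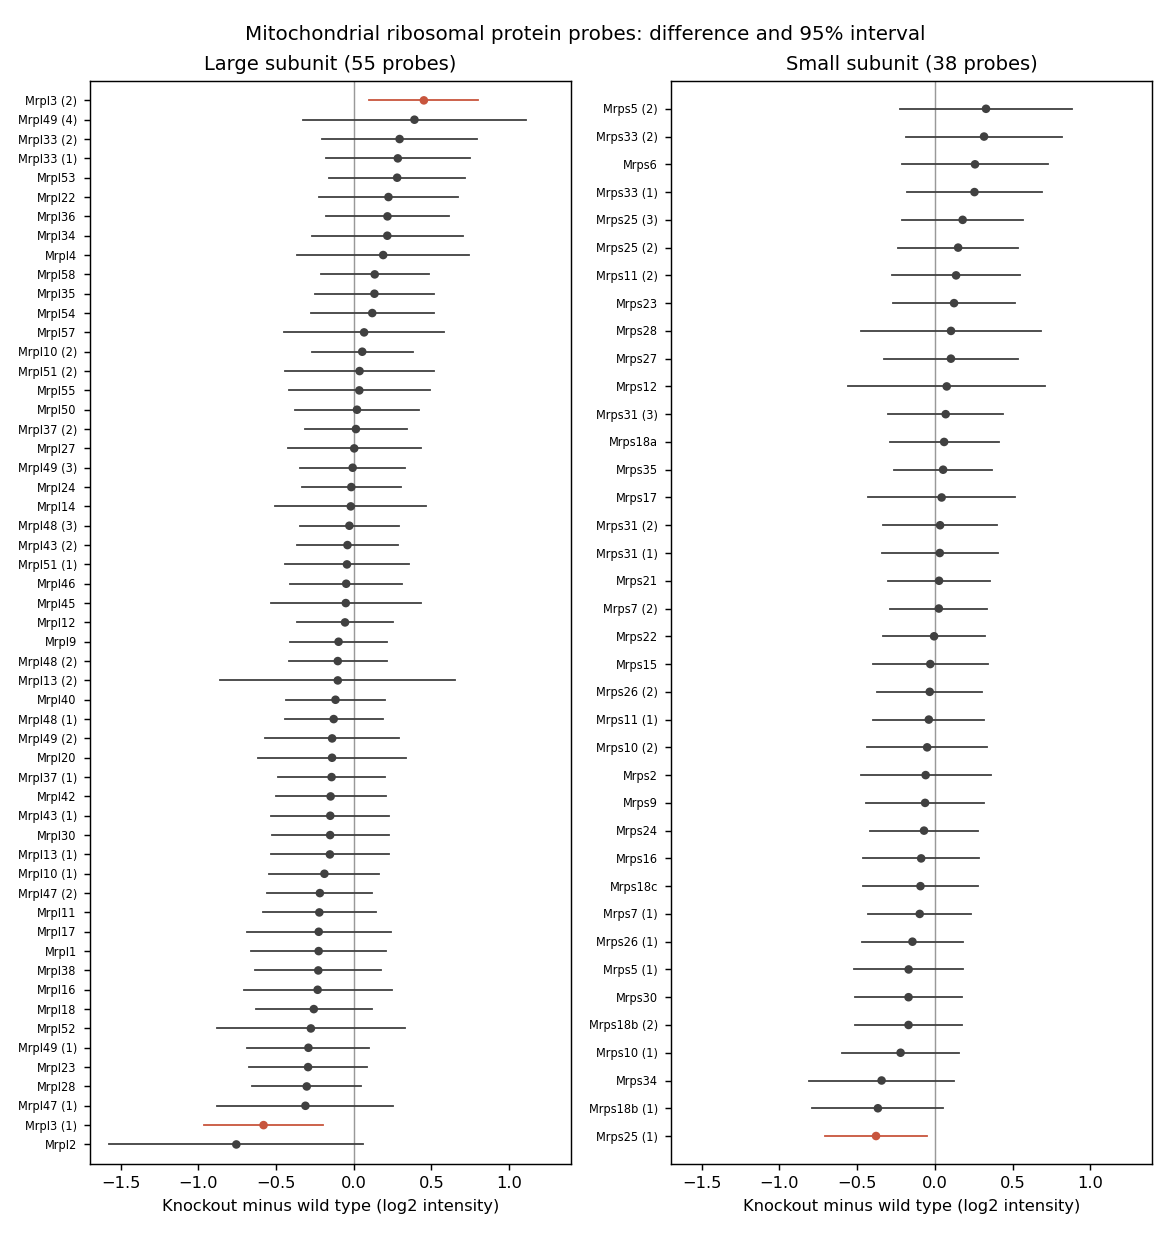
Difference between knockout (n = 3) and wild type (n = 4) in log2 intensity on the horizontal axis, with its 95% interval from limma, for each of the 55 large-subunit probes and 38 small-subunit probes in rows. A number in brackets counts the probes of 1 gene from the lowest difference up, and the 3 red points are the probes with an unadjusted p under 0.05, of which 2 belong to Mrpl3 and 1 to Mrps25.

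The 2 subunits were compared by the median difference of their probes. Among large-subunit probes 19 had a higher and 36 a lower mean in the knockout, with a median of -0.06 and quartiles at -0.20 and 0.05. Among small-subunit probes 19 were higher and 19 lower, with a median of 0.01 and quartiles at -0.09 and 0.10. The large minus the small median was -0.07. Counting Mrps30 and Mrps18a, which sit in the large subunit by structure in spite of their names, with that subunit left the difference of the medians at -0.07. With 1 probe per gene it was -0.02, and with wild-type arrays 2 and 3 both left out it turned to 0.02.

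Each array was summarised by the mean deviation of the member probes from their own mean over the 7 arrays. For the large subunit this was -0.09, 0.07, 0.11 and 0.02 in the wild type and -0.01, 0.02 and -0.10 in the knockout. For the small subunit it was -0.04, -0.05, 0.03 and 0.07 in the wild type and 0.02, 0.05 and -0.08 in the knockout. The groups overlapped in both subunits, and the lowest knockout array was the third in each. The large minus the small deviation was -0.05, 0.13, 0.08 and -0.06 in the wild type and -0.03, -0.04 and -0.02 in the knockout. Wild-type arrays 2 and 3 were the high ones, and the 3 knockout arrays fell between them and the other 2 wild-type arrays. The knockout minus wild-type difference of this measure was -0.05, against a pooled SD within groups of 0.0717 (n = 4 and 3).

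**Figure D2:**
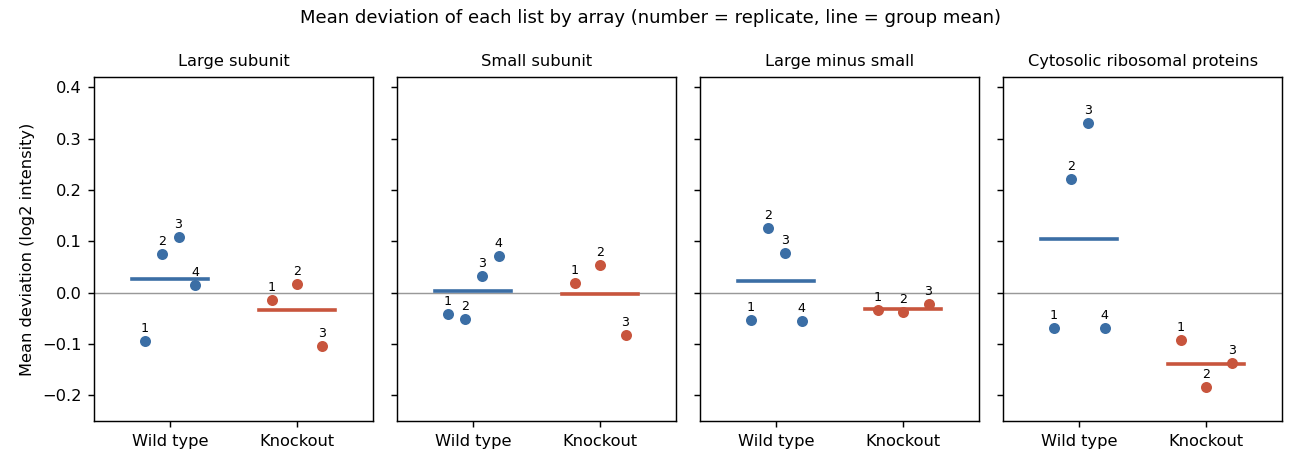
Mean deviation of each list in log2 intensity on the vertical axis for each array, with the replicate number beside each point and a line at the group mean (wild type n = 4, knockout n = 3). The arrays of both groups overlap for the large subunit, the small subunit and their difference, and for cytosolic ribosomal proteins wild-type arrays 2 and 3 lie at 0.22 and 0.33 above all others.

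Ribosomal proteins of the cytosol, which are encoded by a separate set of genes, spread more widely over the same arrays. Their 62 tested probes from 53 genes included 12 with a higher and 50 with a lower mean in the knockout, with a median of -0.19. A higher mean was thus found at 19.4% of them, against 53.1% of all tested probes, and 5 had an unadjusted limma p under 0.05, 8.06% against 4.2%. Their mean deviation was -0.07, 0.22, 0.33 and -0.07 in the wild type and -0.09, -0.18 and -0.14 in the knockout, so that wild-type arrays 2 and 3 were far above the other 5 and the remaining wild-type arrays lay just above the highest knockout array. The members minus the cytosolic list gave 0.00, -0.20, -0.25 and 0.11 in the wild type and 0.09, 0.22 and 0.04 in the knockout. The groups overlapped in that difference, and wild-type arrays 2 and 3 were again the ones apart.

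The array that held the highest or the lowest value of a probe was not spread evenly. Knockout array 3 held the lowest value of 28 of the 93 member probes, 30.1%, against 8.27% of all tested probes. These 28 were 18 of 55 large-subunit and 10 of 38 small-subunit probes. Wild-type array 4 held the lowest value of no member probe, against 7.88% of all tested probes, and the highest of 9. Wild-type array 2 held the highest value of 30 member probes and the lowest of 29, shares of 32.3% and 31.2%, near the 30.0% and 36.2% over all tested probes. It held the highest of 21 large-subunit and 9 small-subunit probes.

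**Figure D3:**
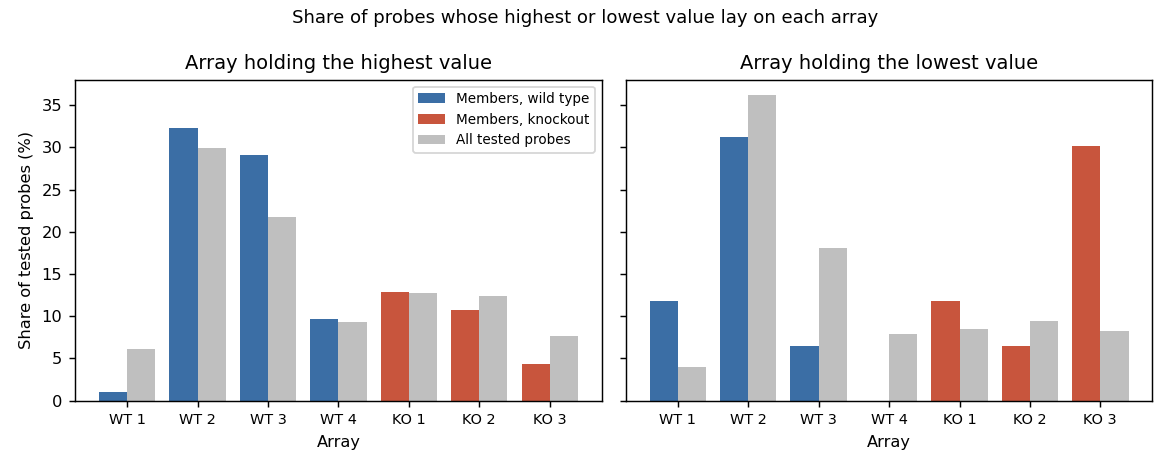
Share of probes, in percent on the vertical axis, whose highest (left) or lowest (right) value over the 7 arrays lay on each array, with coloured bars for the 93 member probes and grey bars for all 12833 tested probes. Knockout array 3 holds 30.1% of the lowest values of the members and 8.27% of those of all tested probes.

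**Figure D4:**
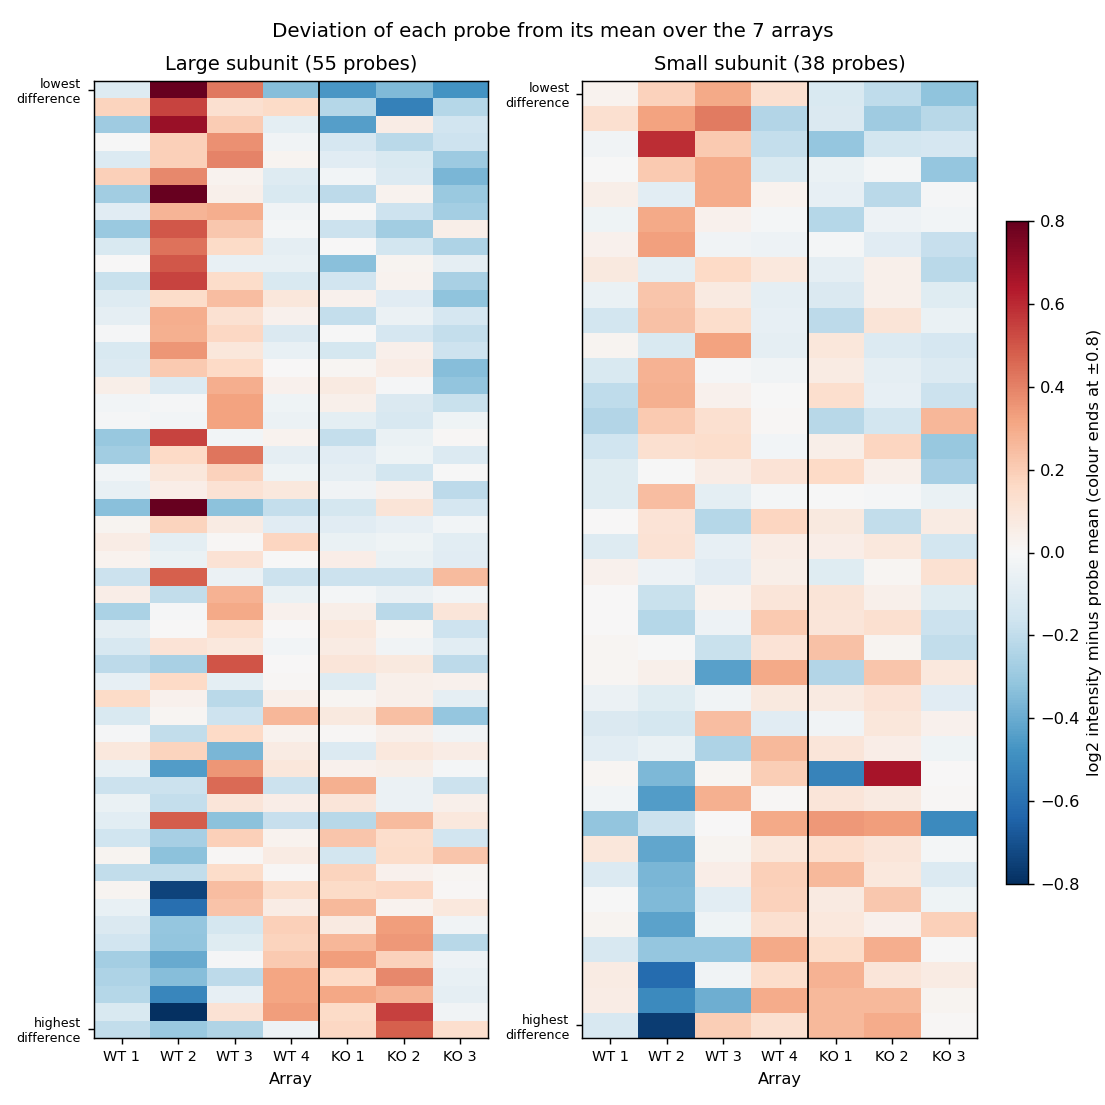
Colour gives the log2 intensity of each member probe minus its mean over the 7 arrays, with probes in rows ordered by the difference between groups and arrays in columns (wild type n = 4, knockout n = 3, the black line between them). Wild-type array 2 carries deep colours in both directions. Knockout array 3 and wild-type array 1 are on average below the probe means in both subunits.

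Mrpl3 and Mrps25 gave the 3 probes with an unadjusted p under 0.05, and their promoters are printed here because both genes are described in detail. They are the 250 bases before the annotated start in RefSeq, build GRCm38.p6, at chr9:105053018-105053267 on the plus strand for Mrpl3 and chr6:92184024-92184273 on the minus strand for Mrps25, written in the direction of transcription, with capitals marking a match to the ETS motif CCGGAAG.
Mrpl3: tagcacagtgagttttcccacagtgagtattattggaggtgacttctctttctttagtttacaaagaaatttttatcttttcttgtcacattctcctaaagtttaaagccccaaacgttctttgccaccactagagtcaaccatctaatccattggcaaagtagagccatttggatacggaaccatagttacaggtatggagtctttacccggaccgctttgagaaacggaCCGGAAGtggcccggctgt
Mrps25: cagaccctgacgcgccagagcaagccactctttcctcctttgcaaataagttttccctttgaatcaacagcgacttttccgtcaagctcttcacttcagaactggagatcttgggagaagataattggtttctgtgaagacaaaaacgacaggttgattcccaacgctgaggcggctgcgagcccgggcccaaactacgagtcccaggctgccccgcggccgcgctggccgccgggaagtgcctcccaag
The single match in the Mrpl3 promoter lies 19 bases before the start, and the Mrps25 stretch holds none of the 3 motifs searched.

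The motifs were the NRF1 half-site TGCGCA, the ETS motif CCGGAAG read by GABP, and AGATGGC of YY1, all on both strands. NRF1, GABP and YY1 are transcription factors known to act on many nuclear genes for mitochondrial proteins. Each promoter was searched from 250 bases before the start to 50 after it, for the 67 of 76 member genes that RefSeq's table holds. The NRF1 half-site was present in 20 of the 67, 29.9%, against 8.79% of all 27025 genes with a promoter. The ETS motif was present in 26, 38.8%, against 9.93%. AGATGGC was present in 12, 17.9%, against 7.31%. In the large subunit 11, 15 and 6 of 41 promoters held the 3 motifs, and in the small subunit 9, 11 and 6 of 26. These are matches of letters in a window and were not tested, and the comparison set holds every RefSeq gene, including genes that are silent in brain.

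Mrpl3 encodes a large-subunit protein whose bacterial homologue lies near the peptidyl transferase centre, and its gene is on chromosome 9. Probe ILMN_1231390 read 291, 373, 280.1 and 285 in the wild type and 219, 177 and 219 in the knockout. Every knockout array was below every wild-type array. The difference was -0.58 (SE 0.17, 95% interval -0.97 to -0.19), with a mean intensity of 307 ± 43.8 (SD, n = 4) against 205 ± 24.6 (SD, n = 3), an unadjusted limma p of 0.00814 and an adjusted p of 0.754. An exact permutation test of this probe gave p = 0.0286 (two-sided), the smallest value that 35 splits of the arrays allow. The same test gave the same p at the other Mrpl3 probe and at the Mrps25 probe ILMN_1246044. All of these probes were named for a small limma p on the same values, so the exact test adds no separate support.

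The other Mrpl3 probe went the opposite way. Probe ILMN_2643264 read 641, 599.9, 623 and 714 in the wild type and 824, 1024 and 806 in the knockout. Every knockout array was above every wild-type array, and it was the only member probe with this order. The difference was 0.45 (SE 0.15, 95% interval 0.10 to 0.80), with a mean of 645 ± 49.3 (SD, n = 4) against 885 ± 121 (SD, n = 3), an unadjusted limma p of 0.0177 and an adjusted p of 0.754. Neither direction can therefore be given for the gene as a whole.

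The ratio of the first to the second Mrpl3 probe within each array was compared as well, a measure chosen after the values were seen. On the log2 scale it was -1.14, -0.69, -1.15 and -1.33 in the wild type and -1.91, -2.54 and -1.88 in the knockout, so the groups did not overlap. The mean ratio was -1.08 ± 0.27 (SD, n = 4) against -2.11 ± 0.37 (SD, n = 3), a difference of -1.03 (SE 0.22, 95% interval -1.56 to -0.51), or a 2.04-fold shift. In a limma fit over all 3886 within-gene probe pairs of the array this pair had the sixth smallest p at 0.00221, and its adjusted p was 0.777. No pair of the array passed after adjustment, and the transcript positions that the probes read are not used here.

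**Figure D5:**
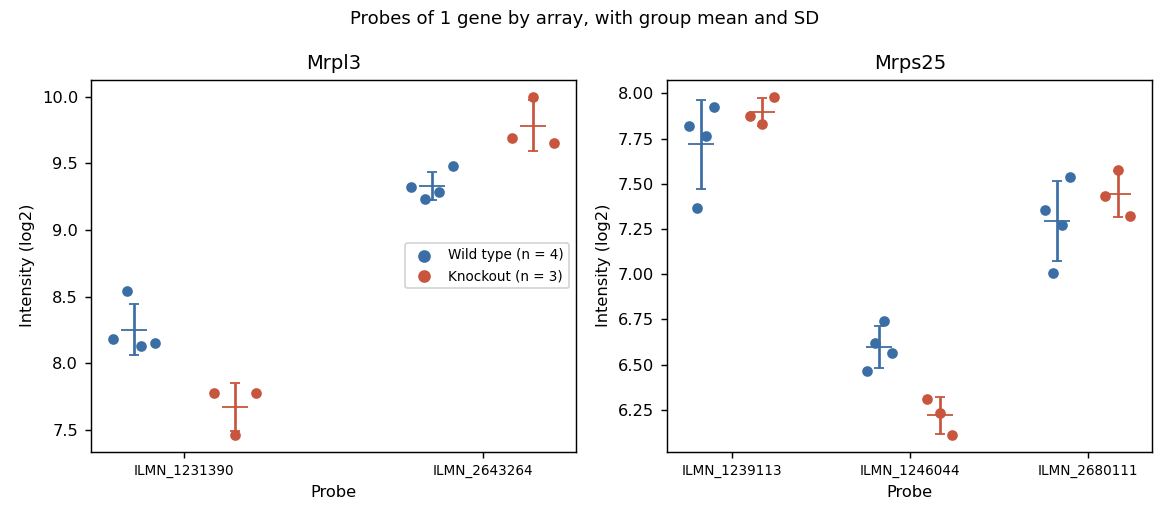
Log2 intensity on the vertical axis for each probe of Mrpl3 (left) and Mrps25 (right), with points for single arrays and bars for the group mean and SD (wild type n = 4, knockout n = 3). At Mrpl3 the knockout lies below the wild type at ILMN_1231390 and above it at ILMN_2643264, and at Mrps25 the groups separate at ILMN_1246044 and overlap at the other 2 probes. Heights of different probes cannot be compared.

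Mrps25, on chromosome 6, encodes a small-subunit protein without a bacterial counterpart and has 3 tested probes. Probe ILMN_1246044 read 88.4, 98.3, 107 and 94.6 in the wild type and 79.5, 75.1 and 69.2 in the knockout, with every knockout array below every wild-type array. The difference was -0.38 (SE 0.14, 95% interval -0.70 to -0.05), with 97.1 ± 7.78 (SD, n = 4) against 74.6 ± 5.15 (SD, n = 3), an unadjusted limma p of 0.0277 and an adjusted p of 0.754. Probe ILMN_2680111 read 164, 129, 155 and 186 against 173, 191 and 160.3, a difference of 0.15 (SE 0.17). Probe ILMN_1239113 read 226, 165.0, 217 and 243 against 235, 228 and 253, a difference of 0.18 (SE 0.17). Both of these overlapped between the groups and had a higher mean in the knockout, where the first probe had a lower one.

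Probes of 1 gene did not always differ in the same direction. Among the 19 member genes with several tested probes, 9 had probes on both sides of 0. These were Mrpl10, Mrpl3, Mrpl37, Mrpl49, Mrpl51, Mrps11, Mrps25, Mrps5 and Mrps7. At Mrpl37, Mrpl51, Mrps11 and Mrps7 every difference was smaller than its SE. The same share over all genes with several probes was not computed. The 19 genes gave 30 probe pairs, of which 3 had an unadjusted limma p under 0.05 for the difference of their within-array ratio, 10% against 5.22% of all pairs. These were the Mrpl3 pair and both Mrps25 pairs that contain ILMN_1246044, at -0.53 (SE 0.18) and 0.56 (SE 0.19), which share that probe. None passed after adjustment (0% of all pairs). Agreement was close at Mrpl33, with 0.28 and 0.30, and at Mrps33, with 0.32 and 0.25. With wild-type arrays 2 and 3 both left out these were 0.13 and 0.13 at Mrpl33 and 0.0024 and 0.057 at Mrps33.

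In the large subunit the lowest difference of any member was at Mrpl2, on chromosome 17, whose bacterial homologue is one of the proteins at the peptidyl transferase centre. It read 644, 1721, 929 and 548 in the wild type and 501, 543 and 498 in the knockout. The knockout lay below the wild type throughout, but wild-type arrays 2 and 3 were far above the other 2 wild-type arrays. The difference was -0.76 (SE 0.36, 95% interval -1.57 to 0.06), and it moved to -0.21 with those 2 arrays left out. Mrpl28, also on chromosome 17, read 1851, 2118, 2393 and 1820.2 in the wild type and 1690.4, 1603 and 1653 in the knockout, a difference of -0.30 (SE 0.15). Its groups did not overlap, and wild-type arrays 2 and 3 were again the highest.

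Mrpl23, whose bacterial homologue lies at the exit of the nascent chain tunnel, read 1624, 2000.2, 2306 and 1777 in the wild type and 1641, 1611 and 1431 in the knockout, a difference of -0.29 (SE 0.17) with overlapping groups. After Mrpl3, the large-subunit probes with a higher knockout mean and the smallest unadjusted p were those of Mrpl33 and Mrpl53. A Mrpl49 probe, ILMN_2929031, had a larger difference of 0.39 with a wider error (SE 0.31). It was dim, at 35.9, 19.6, 42.4 and 49.4 in the wild type and 43.4, 57.2 and 38.4 in the knockout. The other tested Mrpl49 probes stood at -0.01, -0.29 and -0.14, and the groups overlapped at all of them. Mrpl33, on chromosome 5, had 2 probes that read 850.2, 797, 874 and 1255 against 1128, 1321 and 969, and 1055, 859, 1180.0 and 1534 against 1532, 1490.2 and 1173. The differences were 0.28 (SE 0.20) and 0.30 (SE 0.22), and wild-type array 4 lay among the knockout arrays at the first probe and just above them at the second. Mrpl53, of the stalk region and without a bacterial counterpart, read 1049.9, 956, 1257 and 1463 against 1594, 1442 and 1232, a difference of 0.28 (SE 0.19) with overlapping groups.

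By position in the large subunit, the proteins of the stalk and the GTPase centre, where translation factors bind, gave 6 tested probes from 5 genes, 3 higher and 3 lower, with a median of 0.00. Mrpl11 stood at -0.22 (SE 0.16), Mrpl10 at -0.19 and 0.05 by its 2 probes, and Mrpl54 at 0.12 (SE 0.17). The exit tunnel list gave 6 probes from 6 genes, 2 higher and 4 lower, with a median of -0.03, and Mrpl17 stood at -0.23 (SE 0.20), Mrpl22 at 0.22 (SE 0.19) and Mrpl4 at 0.19 (SE 0.24). The central protuberance contacts the small subunit and holds a structural RNA in mammals. Its list gave 8 probes from 6 genes, 3 of them from Mrpl48, with 1 higher and 7 lower and a median of -0.11. Its mean deviation was -0.06, 0.12, 0.13 and 0.01 in the wild type and -0.01, -0.04 and -0.14 in the knockout. The groups overlapped, and wild-type arrays 2 and 3 were the highest. In this list Mrpl18 stood at -0.26 (SE 0.16), Mrpl38 at -0.23 (SE 0.18) and Mrpl27 at 0.00 (SE 0.19). The other 33 large-subunit probes, from 23 genes, had 11 higher and 22 lower and a median of -0.10. The remaining 2 probes belong to Mrpl57, at 0.07 (SE 0.23), and Mrpl58, a peptidyl-tRNA hydrolase built into the ribosome, at 0.14 (SE 0.15), both first named by other symbols. No probe of these lists had an adjusted p under 0.05, and the only ones with an unadjusted p under 0.05 were those of Mrpl3.

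In the small subunit, the list of proteins around the decoding centre, the messenger RNA entry and the body gave 18 probes from 14 genes, 7 higher and 11 lower, with a median of -0.04. Mrps5, whose bacterial homologue lines the entry of the messenger RNA, read 142, 92.0, 178 and 169.9 in the wild type and 186, 191 and 157 in the knockout at ILMN_2780177, a difference of 0.33 (SE 0.24). Its other probe, ILMN_2716014, read 251, 308, 240.2 and 238 against 242, 230.3 and 216, a difference of -0.17 (SE 0.15). The groups overlapped at both, and wild-type array 2 was the lowest at the first and the highest at the second. Without that array the differences were 0.12 and -0.08. Mrps6, on chromosome 16, read 663, 412, 619.8 and 696 against 769, 677 and 662, a difference of 0.26 (SE 0.21), with wild-type array 2 far below the rest, and 0.09 without that array. Mrps10, a homologue of bacterial S10, had differences of -0.22 (SE 0.17) and -0.05 (SE 0.17) at its 2 tested probes.

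Mrps12, on chromosome 7, is a homologue of bacterial S12, the protein at the decoding centre in which streptomycin resistance arises. It read 1560.15, 1200.2, 1555 and 1768 in the wild type and 1064, 2435 and 1545 in the knockout, so the lowest and the highest of the 7 values were both knockout arrays. The difference was 0.08 (SE 0.28), and it was -0.23 without knockout array 2. Its neighbour Sars2, the mitochondrial seryl-tRNA synthetase, named after its values were seen, had log2 intensities of 5.78, 4.80, 6.41 and 5.95 in the wild type and 5.90, 5.94 and 5.59 in the knockout. The wide spread of Mrps12 among the knockout arrays was thus not seen at the Sars2 probe.

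The list of small-subunit proteins largely without a bacterial counterpart, which also holds the S18-related Mrps18b, gave 18 probes from 11 genes. Of these probes 11 were higher and 7 lower, with a median of 0.04. Mrps33 read 1379.55, 929.7, 1011 and 1627 in the wild type and 1584, 1588 and 1344 in the knockout at ILMN_1214937, a difference of 0.32 (SE 0.22). Mrps34, which is required for a stable small subunit in the mouse, read 2155, 3305, 2542 and 1924 against 1773, 1983 and 1999, a difference of -0.34 (SE 0.20). The groups overlapped at both genes, with wild-type array 2 the lowest at Mrps33 and the highest at Mrps34. Without that array the differences were 0.19 at Mrps33 and -0.19 at Mrps34. With wild-type arrays 2 and 3 both left out they were 0.0024 at Mrps33 and -0.088 at Mrps34. Mrps18b had differences of -0.37 (SE 0.18) and -0.17 (SE 0.15) at its 2 probes, and its dimmer probe read 119, 136, 145 and 92.6 against 100.3, 89.2 and 93.1. Wild-type array 4 lay among the knockout arrays there.

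Mrps30 and Mrps18a carry small-subunit names and sit in the large subunit. Mrps30 read 886, 1119, 930.0 and 898 in the wild type and 776, 882 and 892 in the knockout, a difference of -0.17 (SE 0.15). Mrps18a read 904, 885, 1159.6 and 917 against 959, 1042 and 1003, a difference of 0.06 (SE 0.15). The groups overlapped at both. Mrps36, now known as a subunit of the 2-oxoglutarate dehydrogenase complex, had no tested probe.

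The member genes lie on 17 chromosomes, 5 of them on chromosome 3 with Pde4dip. The nearest, Mrps21, is separated from Pde4dip by 48 protein-coding genes in RefSeq and read 945, 831, 959.7 and 1008 in the wild type and 1011, 969 and 879 in the knockout, a difference of 0.03 (SE 0.14). Mrpl9 is separated by 93 genes and read 518, 469.5, 499 and 560.0 against 478, 485 and 469, a difference of -0.10 (SE 0.14). The groups overlapped at both, and the other 3, Mrpl24, Mrpl47 and Mrps28, lie farther away.

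Other genes of mitochondrial translation were read by lists set out beside the members, and no probe of any of them had an adjusted p under 0.05. Assembly factors of the mitochondrial ribosome gave 20 probes from 15 of 25 genes, 3 higher and 17 lower, with a median of -0.16. Their mean deviation was -0.01, 0.29, 0.06 and -0.07 in the wild type and -0.07, -0.04 and -0.16 in the knockout, with wild-type array 2 far above the rest and overlapping groups. Rbfa, which acts on the small subunit, stood at -0.51 (SE 0.30), Mterf4, which acts on the large one, at -0.33 (SE 0.18), and Eral1, which binds the RNA of the small subunit, at 0.34 (SE 0.19), all with overlapping groups. Without wild-type array 2 these were -0.23 for Rbfa, -0.26 for Mterf4 and 0.20 for Eral1. Mtg1 of the same list stood at 0.31 (SE 0.23), also with overlapping groups. Ribosomal proteins under other names gave 6 probes from 3 genes, 1 higher and 5 lower. The higher one was Chchd1, at 0.10 (SE 0.15) with overlapping groups. Dap3 of the small subunit read 376, 489, 492 and 346 in the wild type and 344, 269 and 334 in the knockout at ILMN_2646230. The knockout arrays were all lower there, by -0.42 (SE 0.19), with 344 just under the lowest wild-type array. Another Dap3 probe, ILMN_2953910, stood at -0.21 (SE 0.24) with overlapping groups, and at 0.00996 without wild-type array 2.

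Translation factors gave 18 probes from 13 of 17 genes, 8 higher and 10 lower, with a median of -0.02. Mtrf1, a release factor, stood at -0.45 (SE 0.22). Its probe was dim, at 34.2, 50.4, 43.8 and 27.2 in the wild type and 28.5, 27.1 and 27.4 in the knockout. The difference was -0.30 with values under 32 set to 32, and -0.14 with wild-type arrays 2 and 3 left out. Mrrf, which recycles the ribosome, stood at -0.28 (SE 0.20) and Gfm1, an elongation factor, at 0.20 (SE 0.16). Mtrf1l stood at 0.24 (SE 0.24), opposite in sign to Mtrf1. Mitochondrial aminoacyl-tRNA synthetases, which charge transfer RNA, gave 17 probes from 14 of 19 genes, 10 higher and 7 lower, with a median of 0.02. Fars2, which charges phenylalanine, stood at -0.53 (SE 0.27) without overlap of the groups, and its wild-type array 2 was the highest at 1506. Without that array the difference was -0.29. Iars2, for isoleucine, stood at 0.29 (SE 0.25) and Rars2, for arginine, at 0.34 (SE 0.21). Without wild-type array 2 these were 0.07 for Iars2 and 0.22 for Rars2. With wild-type arrays 2 and 3 both left out Rars2 stood at 0.036. Kars stood at -0.23 (SE 0.18). Genes of mitochondrial transcription and RNA maturation gave 19 probes from 12 of 15 genes, 14 higher and 5 lower, with a median of 0.11. Their mean deviation was -0.03, -0.02, -0.18 and 0.05 in the wild type and 0.04, 0.14 and -0.01 in the knockout. The groups overlapped, and wild-type array 3 was the lowest. The mitochondrial termination factor gene Mterf1a stood at 0.41 (SE 0.23) and 0.34 (SE 0.21). With wild-type arrays 2 and 3 both left out its probes stood at 0.098 and 0.075. Hsd17b10, a subunit of the mitochondrial RNase P, stood at -0.29 (SE 0.22) and Mtpap at -0.24 (SE 0.20). The messenger RNAs of mitochondrial DNA had no tested probe.

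Nuclear regulators of mitochondrial genes gave 6 probes from 5 of 10 genes, 4 higher and 2 lower, with a median of 0.17. Their mean deviation was -0.24, 0.51, 0.07 and -0.30 in the wild type and -0.05, -0.12 and 0.12 in the knockout. The groups overlapped, and the mean over the knockout arrays was lower by 0.03. An unadjusted limma p under 0.05 was found at 1 probe, 16.7% of the 6, against 4.2% of all tested probes. That probe belonged to Gabpb1, the subunit that pairs with the DNA-binding subunit of GABP, and read 20.4, 21.0, 25.9 and 26.3 in the wild type and 40.9, 33.0 and 36.4 in the knockout. The knockout lay above the wild type throughout, by 0.66 (SE 0.17, limma adjusted p = 0.754), at intensities near the limit of 16. With that limit at 32 the difference was 0.19. Its second probe overlapped between the groups, at 0.40 (SE 0.26). Ppargc1a, a coactivator of mitochondrial biogenesis, read 127, 737, 181 and 84.4 against 103, 95.1 and 131, with wild-type array 2 far above the rest and a difference of -0.84 (SE 0.64), and the related Ppargc1b stood at -0.70 (SE 0.45). Without that array they stood at -0.20 and -0.37.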

How the data were processed

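Brain RNA of 4 wild-type and 3 knockout mice was measured on 1 Illumina BeadArray each. The deposited values are normalized intensities on a linear scale, made by the authors with GenomeStudio 2011.1, per the submitters' processing notes. Negative values show that a background was subtracted, and neither labels nor headers state how the arrays were normalized to one another. A second deposited table has 7 signal columns whose names match no sample label, and it was not used here. The log2 values tested here were computed from the deposited intensities after values under 16 were set to 16, for probes above 16 on at least 3 arrays. The number of arrays limits the precision.

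Groups were compared with limma 3.58.1 in R 4.3.3 over all 12833 tested probes, without covariates, with two-sided p-values and Benjamini-Hochberg adjustment at 0.05. Single probes were also compared by exact permutation across all 35 splits of 4 and 3 arrays. Probe pairs of 1 gene were compared as within-array log2 ratios in a limma fit over 3886 pairs. Both fits were also run on simulated data with independent noise of equal spread on every array. Arrays of unequal spread, such as wild-type array 2, were not simulated. Probe names follow the platform annotation, with chromosomes, neighbours and promoters from RefSeq tables of GRCm38.p6, where all 76 genes matched the gene table and 67 the promoter table. Tables were written with Python 3.11.15 and pandas 2.3.3, exact tests with scipy 1.17.1 and figures with matplotlib 3.10.9.

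The members, gene lists and tests were chosen with earlier results of these data known. Named were the 4 probes with the smallest unadjusted p in each direction and subunit, with all other probes of their genes, Mrpl12, Mrps12, Mrps22, Mrps30, Mrps18a, Mrps36 and the nearest members on chromosome 3 whatever their values, and the 2 probes with the smallest p in each direction of each list. Mrpl44, also in the rule, is not analysed here. Alternatives were other floors (8 and 32), no filter or a filter on all 7 arrays, quantile normalization, limma-trend, array weights and 1 probe per gene. Further ones were the replicate number as a block on replicates 1 to 3, each array left out, and wild-type arrays 2 and 3 left out together. The labels describe each array as a mouse of its own, and say nothing of separate extractions.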

Additional observations from a re-analysis of the deposited data

Results flagged for a closer look

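Among 63 groups of 4 wild-type values examined for named probes, 2 held an array far from the other 3, and chance alone marks about 1 in 20 such groups. At Mrpl3 (ILMN_1231390) wild-type array 2 read 8.54 on the log2 scale, against 8.13 to 8.18 on the other 3, which lies farther from the knockout arrays. At Mrps18a (ILMN_2717916) wild-type array 3 read 10.18, against 9.79 to 9.84 on the other 3.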

How the results depend on the processing

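No member passed the threshold of limma's adjusted p under any of the 16 alternatives, and over all tested probes only array weights gave calls, 28 against 0. The weights stopped short of convergence and gave 6.71 to wild-type array 1 and 0.104 to wild-type array 2. With them 16 member probes had an unadjusted p under 0.05, as did 20.6% of all tested probes, the median of the large subunit moved from -0.06 to 0.056, and the first Gabpb1 probe passed at 0.77 (adjusted p = 0.0437), where a floor of 32 gave 0.19 and its adjusted p under the other alternatives lay between 0.371 and 1.00. With wild-type arrays 2 and 3 left out the large minus small median moved from -0.07 to 0.017. Leaving out 1 array gave medians of -0.11 to -0.04 for the large subunit, -0.04 to 0.06 for the small and -0.10 to -0.05 for their difference. Member probes with an unadjusted p under 0.05 ranged from 1 without knockout array 2 to 7 without wild-type array 4, while all such probes ranged from 157 to 1626. The Mrpl3 probe ratio ranged from -1.15 to -0.82 over its alternatives.

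Of 61 named results 48 kept their sign throughout. With array weights Mrps10 (ILMN_2691360) turned to 0.15, Mrps22 to 0.10, Mrpl17 to 0.057, Dap3 (ILMN_2953910) to 0.069, Iars2 to -0.11 and Hsd17b10 to 0.033. Without wild-type arrays 2 and 3 Mrps10 (ILMN_2691360) turned to 0.062, Mrps12 to -0.065, Mrps21 to -0.037, Mrps22 to 0.019, Mrps25 (ILMN_2680111) to -0.0043, Mrpl17 to 0.021, Mrpl27 to -0.070, Ppargc1b to 0.022 and Ppargc1a to 0.070. With 1 array left out Mrpl27 ranged from -0.11 to 0.16, Mrps12 from -0.23 to 0.36, Mrps21 from -0.029 to 0.084, Mrps22 from -0.048 to 0.066, Mrpl4 from -0.029 to 0.30, Dap3 (ILMN_2953910) from -0.31 to 0.00996 and Mrps10 (ILMN_2691360) from -0.15 to 0.086. The cause was not tested.

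Same-numbered arrays correlated at 0.08, -0.13 and -0.04 in their deviations, and differently numbered ones at -0.47 to 0.38. No pairing by replicate number was thus seen, but so few pairs cannot decide whether any exists. The replicate number was used as a block on replicates 1 to 3 only, so wild-type array 4 was left out, and 0 probes passed. The medians were -0.07 and 0.03 for the large and small subunit, the same as without that array and without a block. With the block 2 member probes had an unadjusted limma p under 0.05, as did 12.1% of all tested probes. Without that array and without a block there were 7, and 12.8% of all tested probes. Mrps22 turned to 0.013 with the block. Effects of the block and of the missing array were not separated for it.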
